A study of Mus musculus with 6 samples.

Results

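The AP-1 and immediate early genes of the involuting mammary gland were described from 10 genes: the Fos family (Fos, Fosb, Fosl1 and Fosl2), the Jun family (Jun, Junb and Jund), Atf3, Egr1 and Myc. They were chosen by name, and every probe set that the array annotation assigns to 1 of these genes alone was used, which gave 14 probe sets among 34958 that name a single gene, for all 10 genes among 18194. RNA came from the fourth inguinal gland of 6 mice at involution day 2, with 1 Affymetrix array per mouse. The 3 WT mice were Rac1fx/fx with the YFP reporter and no Cre, and the 3 Rac1-/- mice carried the same floxed alleles and reporter together with WAPiCre, so both groups share the floxed gene and only the Rac1-/- mice carry the transgene. The whey acidic protein promoter drives Cre in luminal epithelial cells from mid-pregnancy, so Rac1 was removed from those cells and not from stroma, myoepithelium or leukocytes. The groups were age matched, with dams mated as young adults, and replicate numbers 1 to 3 below only name the mice (Nas478, Nas483 and Nas484 for WT, and Nas496, Nas497 and Nas518 for Rac1-/-). The comparison asks how loss of epithelial Rac1 went with the RNA levels of these transcription factors on the second day after weaning.

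AP-1 is a dimer of basic leucine zipper proteins, in which a Fos protein pairs with a Jun protein or Jun proteins pair with each other, and it binds short DNA sites in the promoters of genes for proliferation, death and matrix turnover. Transcription of Fos, Egr1 and several other members rises within minutes of a stimulus without new protein synthesis, which is why they are called immediate early genes, and their RNAs are short-lived. Rac1 is known as an activator of the kinase JNK, which phosphorylates c-Jun, and AP-1 activity is known to increase in the gland when suckling stops.

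Of the 10 genes, 0 passed limma's test after Benjamini-Hochberg adjustment over all 18194 genes, where 0% of all genes passed, and 1 had an unadjusted p under 0.05, where 4.05% of all genes (737) did. Of the 737, 405 were higher and 332 lower in Rac1-/- glands, while such genes numbered 400 and 548 with arrays scaled to a common median and 648 and 178 on the intensities as deposited. Fosb was the member at an unadjusted p under 0.05. It was higher in Rac1-/- glands by 1.24 on the log2 scale, and it was the 1 member whose groups did not overlap, where 5.41% of all genes had every Rac1-/- value above every WT value and 4.2% had every value below. Over all 18194 genes, 9803 had a higher and 8391 a lower mean in Rac1-/- glands. Of the members, 6 had a higher and 4 a lower mean, and their median log2 fold change was 0.11 beside 0.060 over all genes. That median took the other sign with arrays scaled to a common median (-0.39, with 3 members above and 7 below 0) and without WT mouse 3 (-0.28), Rac1-/- mouse 1 (-0.14) or Rac1-/- mouse 3 (-0.043), and it was 0.52 without Rac1-/- mouse 2 and 0.36 without WT mouse 2. It was 0.71, with 9 members above 0, in a model that includes the interquartile range of each array, and 1.13, with 8 above 0, in one that includes the actin measure given below. The members' log2 fold changes ran from -0.48 for Junb to 1.24 for Fosb. For 9 of the 10 genes the 95% interval included 0, and several of these intervals also included a 2-fold change in either direction, so the arrays do not show that those genes had equal levels.

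**Figure D1:**
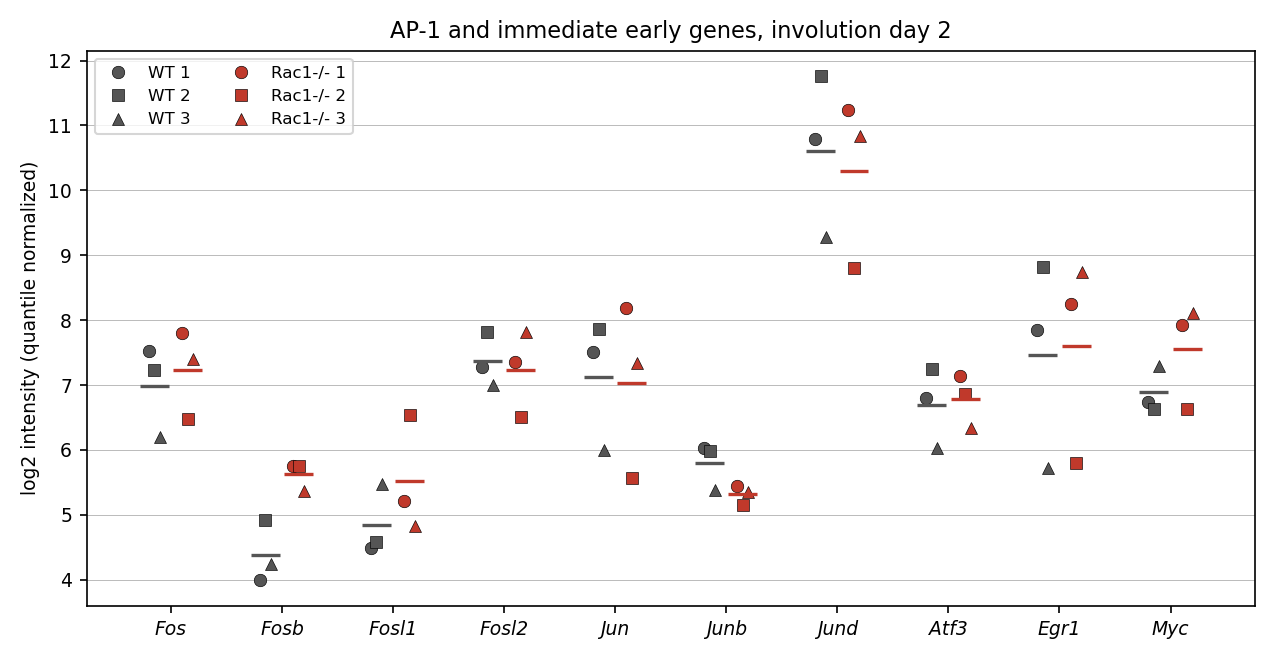
Quantile-normalized log2 intensity of the 10 genes (vertical axis) at involution day 2, with grey for the 3 WT and red for the 3 Rac1-/- mice, 1 symbol per mouse and a bar at each group mean. The groups are separate for Fosb alone, and WT mouse 3 and Rac1-/- mouse 2 are the lowest for Fos, Fosl2, Jun, Jund and Egr1.

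The arrays themselves differed. The median deposited intensity ran from 40.6 to 71.5 on the WT and from 56.0 to 88.0 on the Rac1-/- arrays, and the interquartile range of the log2 intensities was 2.85, 2.42 and 1.42 in WT mice 1 to 3 and 1.98, 1.23 and 1.48 in Rac1-/- mice 1 to 3. The arrays of WT mouse 3 and Rac1-/- mouse 2 stood apart on the main axis of a principal component analysis (44.3% of variance). Subtracting the log2 signal of the 5' from that of the 3' actin control probe set, a sign of RNA quality, gave values between -0.17 and 0.048 for WT and between -1.24 and -0.30 for Rac1-/- mice, so this measure cannot be told apart from genotype. Values below 0 mean that the 5' signal was the stronger, so they are not read here as poorer RNA in Rac1-/- mice. The same measure for Gapdh did not separate the genotypes and was highest in WT mouse 3 (0.16) and Rac1-/- mouse 2 (0.18), beside -0.058 to 0.016 in the other 4. Rac1 had log2 intensities of 9.31, 9.50 and 8.97 in WT mice 1 to 3 and 9.51, 9.01 and 9.84 in Rac1-/- mice 1 to 3 on its brightest probe set, a log2 fold change of 0.19 (SE 0.46). A second bright probe set gave -0.80 (SE 0.50), also with overlap, and a dim one had a lower mean in the Rac1-/- group with 1 value at the floor. Whether any of them lies in the deleted exons is not known. Luminal markers were bright on every array. Their summed intensity, of which milk protein genes form part, was 152791 to 193038 in WT and 79353 to 105878 in Rac1-/- glands, and it is almost all signal of milk protein genes. Of the 10 luminal and milk markers, 3 had a higher and 7 a lower mean, with a median of -0.25. Wap, Lalba and Elf5, the gene of a transcription factor of alveolar cells, were lower at an unadjusted p under 0.05 in limma. The other luminal genes went both ways. Krt18 (0.90, SE 0.43) and Krt8 (0.87, SE 0.57) had higher means, and Krt19 (-0.19, SE 0.62) and Epcam (-0.14, SE 0.47) lower ones. Of these 4, Krt18 alone had no overlap, where 5.41% of all genes are higher without overlap. In whole glands, fewer cells of a type and less RNA per cell cannot be told apart.

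Among the Fos family, Fosb had log2 intensities of 3.99, 4.91 and 4.25 in WT mice 1 to 3 and 5.75, 5.76 and 5.36 in Rac1-/- mice 1 to 3. Every Rac1-/- mouse thus lay above every WT mouse. FosB is a partner of Jun proteins that is also made as a short form lacking the transactivation domain. The group means were 4.38 ± 0.48 (SD, n = 3) for WT against 5.62 ± 0.23 (SD, n = 3) for Rac1-/- mice, which is a log2 fold change of 1.24 (SE 0.46, 95% interval 0.20 to 2.28, limma adjusted p = 0.946), with an unadjusted p of 0.0249. The probe set was dim. It was below the median of all probe sets on 6 of 6 arrays, and its mean intensity exceeded that of 22.5% of probe sets. The deposited intensities were 3.09, 16.8 and 27.3 for the WT and 47.3, 79.5 and 50.4 for the Rac1-/- mice in the same order. On this unnormalized scale the log2 fold change of Fosb was 2.36, and with arrays scaled to a common median it was 1.88. With 16 added to each normalized intensity before log2 it was 0.81, and with a floor of 16 it was 1.24. Leaving out single mice gave values between 1.04 (without WT mouse 1) and 1.51 (without WT mouse 2). In the models with the array range and with the actin difference, Fosb stayed above 0 but its unadjusted p in limma was not under 0.05. Over the 6 arrays its level ran against the actin difference (r = -0.71), which itself separates the genotypes.

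Fosl1, which encodes Fra-1, a Fos protein without a transactivation domain that is induced by AP-1 itself, was also dim, above the array median in 1 of 6 mice. On its brighter probe set the values were 4.49, 4.58 and 5.48 in WT mice 1 to 3 and 5.21, 6.54 and 4.82 in Rac1-/- mice 1 to 3. Rac1-/- mouse 2 was the highest and the groups overlapped. The log2 fold change was 0.67 (SE 0.58, 95% interval -0.66 to 2.00, limma adjusted p = 0.946). The other probe set gave 2.20, 5.28 and 5.19 in WT mice 1 to 3 and 5.17, 6.51 and 5.38 in Rac1-/- mice 1 to 3, with a log2 fold change of 1.46 (SE 0.87), and there WT mouse 1 was far below all other mice. Fosl1 was 0.17 without Rac1-/- mouse 2. Adding the actin difference to the model turned it to -0.51, adding the array range gave 0.092, and it was 1.28 with arrays scaled to a common median and 1.75 as deposited.

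Fos, the founding member, whose product c-Fos binds DNA only as a dimer, had values of 7.53, 7.22 and 6.20 in WT mice 1 to 3 and 7.80, 6.47 and 7.40 in Rac1-/- mice 1 to 3. The highest and the lowest Rac1-/- mouse enclosed 2 of the 3 WT mice. The group means were 6.98 ± 0.70 (SD, n = 3) for WT against 7.23 ± 0.68 (SD, n = 3) for Rac1-/- mice, giving a log2 fold change of 0.24 (SE 0.56, 95% interval -1.04 to 1.52, limma adjusted p = 0.974). Single mice turned its sign, with -0.15 without WT mouse 3 and -0.049 without Rac1-/- mouse 1, and it was 0.62 without Rac1-/- mouse 2. It was -0.24 with arrays scaled to a common median, 0.97 in the model with the array range and 1.15 in that with the actin difference.

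Fosl2, which encodes Fra-2, had 7.29, 7.81 and 7.0 in WT mice 1 to 3 and 7.36, 6.51 and 7.82 in Rac1-/- mice 1 to 3 on its brighter probe set. Rac1-/- mice 2 and 3 held the lowest and the highest of the 6 values. The log2 fold change was -0.14 (SE 0.51, 95% interval -1.30 to 1.03, limma adjusted p = 0.989), and 0.22 without Rac1-/- mouse 2, or 0.085 without WT mouse 2. Over all alternatives it ran from -0.62 (common median) to 0.69 (actin difference in the model). On the other probe set it was -0.37 (SE 0.49), from values of 6.95, 7.16 and 7.60 in WT mice 1 to 3 and 7.46, 6.68 and 6.48 in Rac1-/- mice 1 to 3. The order of the mice differed between these probe sets, with WT mouse 3 low on the first and highest on the second.

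Promoters of Fos, Jun and Atf3 are shown because each holds a match to a site that AP-1 or its relatives are known to bind. They are taken from RefSeq on build GRCm38.p6, each from 250 bases before to 50 after the annotated start and 5′ to 3′ on the gene's strand. Promoters of 7 of the 10 genes were matched by symbol and used. None was matched for Fosl1 and Myc, and that of Egr1 was not used. Capitals mark a short cyclic AMP response element (TGACGT), the Jun variant of the AP-1 site (TGACATCA) and the TATA element (TATAAA), each searched on both strands.
Fos at chr12:85473640-85473939, plus strand: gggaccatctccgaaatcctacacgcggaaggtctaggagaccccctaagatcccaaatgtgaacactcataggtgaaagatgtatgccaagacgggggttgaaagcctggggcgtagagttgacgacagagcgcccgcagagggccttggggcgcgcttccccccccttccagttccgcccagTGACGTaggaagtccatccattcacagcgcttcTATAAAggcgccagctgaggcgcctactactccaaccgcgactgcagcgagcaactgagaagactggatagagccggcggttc
Jun at chr4:95052173-95052472, minus strand: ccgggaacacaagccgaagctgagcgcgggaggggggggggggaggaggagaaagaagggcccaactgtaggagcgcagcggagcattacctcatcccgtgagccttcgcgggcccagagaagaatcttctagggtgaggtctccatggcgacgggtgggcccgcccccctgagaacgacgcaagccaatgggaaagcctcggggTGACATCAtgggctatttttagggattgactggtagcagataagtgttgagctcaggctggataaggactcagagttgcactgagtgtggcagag
Atf3 at chr1:191183284-191183583, minus strand: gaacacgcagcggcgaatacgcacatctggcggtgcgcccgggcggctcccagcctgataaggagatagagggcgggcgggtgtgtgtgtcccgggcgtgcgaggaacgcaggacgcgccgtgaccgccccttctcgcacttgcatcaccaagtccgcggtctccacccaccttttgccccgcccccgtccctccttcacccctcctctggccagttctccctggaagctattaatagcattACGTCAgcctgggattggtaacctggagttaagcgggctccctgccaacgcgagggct
The short element began at position -66 in Fos and -8 in Atf3, counting the annotated start as 0, and 7.51% of 32851 promoters of this length hold it. The Jun variant began at -45 in Jun and is in 3.62% of promoters, and the TATA element at -33 in Fos is in 13.6%. The AP-1 site TGANTCA (7.81% of promoters), the full element TGACGTCA, which contains the short one (1.79%), and the CArG box bound by serum response factor (1.63%) were in none of the 7 windows, which says only that these letters are not within them. The other 4 promoters used, those of Fosb, Fosl2, Junb and Jund, held none of the searched motifs, except the letters TATAAA in Junb. These began at position 0, the annotated start itself, and not before it as in Fos. These matches are descriptions of sequence, and no binding was measured.

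In the Jun family, Jun, which encodes the AP-1 subunit that JNK phosphorylates, had log2 intensities of 7.50, 7.86 and 6.0 in WT mice 1 to 3 and 8.19, 5.57 and 7.34 in Rac1-/- mice 1 to 3 on its brighter probe set. WT mouse 3 and Rac1-/- mouse 2 were the lowest, and Rac1-/- mouse 1 the highest. The group means were 7.12 ± 0.99 (SD, n = 3) for WT against 7.03 ± 1.34 (SD, n = 3) for Rac1-/- mice, a log2 fold change of -0.088 (SE 0.77, 95% interval -1.86 to 1.68, limma adjusted p = 0.996). The estimate was -0.65 without WT mouse 3 and -0.67 without Rac1-/- mouse 1, and it turned to 0.64 without Rac1-/- mouse 2, to 0.28 without WT mouse 2 and to 0.10 without WT mouse 1. It was -0.54 with arrays scaled to a common median and 1.57 in the model with the actin difference. On the other probe set, the values were 6.14, 6.65 and 6.10 in WT mice 1 to 3 and 6.80, 6.51 and 6.54 in Rac1-/- mice 1 to 3. These spanned a narrower range, with a log2 fold change of 0.32 (SE 0.44), opposite in sign to the first but apart from it by less than its SE.

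Jund, whose product is known as the Jun protein of resting cells, had values of 10.79, 11.76 and 9.27 in WT mice 1 to 3 and 11.24, 8.81 and 10.84 in Rac1-/- mice 1 to 3. Its probe set was brighter than 99.0% of all probe sets, and the 6 mice spanned 7.75-fold. The log2 fold change was -0.31 (SE 0.82, 95% interval -2.20 to 1.57, limma adjusted p = 0.98), with -0.98 without WT mouse 3, -0.78 without Rac1-/- mouse 1, -0.58 without Rac1-/- mouse 3, 0.43 without Rac1-/- mouse 2 and 0.27 without WT mouse 2. It was -1.34 with arrays scaled to a common median and -0.87 as deposited, but 0.79 and 1.45 in the models with the array range and the actin difference. The dimmer probe set of Jund gave 0.19 (SE 0.57), and on it WT mouse 2, the highest mouse on the bright probe set, was the lowest.

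Junb, whose product often opposes c-Jun at shared sites, had 6.03, 5.99 and 5.38 in WT mice 1 to 3 and 5.45, 5.15 and 5.35 in Rac1-/- mice 1 to 3. All 3 Rac1-/- values lay below WT mice 1 and 2, and WT mouse 3 lay among them. The group means were 5.80 ± 0.36 (SD, n = 3) for WT against 5.32 ± 0.15 (SD, n = 3) for Rac1-/- mice, a log2 fold change of -0.48 (SE 0.43, 95% interval -1.47 to 0.51, limma adjusted p = 0.946). Junb was above the array median in 2 of 6 mice. Over the 6 arrays its level followed the interquartile range (r = 0.96, a description over 6 arrays that share that normalization), and in a model with that range the log2 fold change was -0.17. On the unnormalized scale it was 0.0094.

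Atf3, a stress-induced factor that can pair with Jun proteins and often represses, had 6.80, 7.25 and 6.03 in WT mice 1 to 3 and 7.14, 6.86 and 6.33 in Rac1-/- mice 1 to 3. All 3 Rac1-/- values lay within the range of the WT values, and the log2 fold change was 0.083 (SE 0.50, 95% interval -1.06 to 1.23, limma adjusted p = 0.992). It was -0.25 without WT mouse 3, -0.10 without Rac1-/- mouse 1, 0.36 without WT mouse 2 and 0.31 without Rac1-/- mouse 3. Over all alternatives it ran from -0.33 (common median) to 0.51 (array range in the model).

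Egr1, a zinc finger factor induced along with Fos, varied most among the members, with 7.85, 8.82 and 5.72 in WT mice 1 to 3 and 8.26, 5.80 and 8.75 in Rac1-/- mice 1 to 3. WT mouse 3 and Rac1-/- mouse 2 were far below the other 4 mice. The highest was 8.56-fold above the lowest, both of them WT mice. The spread within groups (pooled SD 1.58) was larger than for 94.7% of all genes, beside 87.4% for Jund and 83.4% for Jun. The group means were 7.46 ± 1.58 (SD, n = 3) for WT against 7.60 ± 1.58 (SD, n = 3) for Rac1-/- mice, with a log2 fold change of 0.14 (SE 0.98, 95% interval -2.09 to 2.37, limma adjusted p = 0.996). It was -0.73 without WT mouse 3, -0.19 without Rac1-/- mouse 1, -0.43 without Rac1-/- mouse 3, 0.33 without WT mouse 1, 0.82 without WT mouse 2 and 1.04 without Rac1-/- mouse 2. The models with the array range and the actin difference gave 1.45 and 2.37, and scaling to a common median -0.48.

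Myc, which encodes a growth-promoting factor that pairs with Max, had 6.74, 6.63 and 7.29 in WT mice 1 to 3 and 7.93, 6.63 and 8.10 in Rac1-/- mice 1 to 3. Rac1-/- mice 1 and 3 were the highest of all, while Rac1-/- mouse 2 lay beside the 2 lowest WT mice. The group means were 6.89 ± 0.35 (SD, n = 3) for WT against 7.55 ± 0.80 (SD, n = 3) for Rac1-/- mice, a log2 fold change of 0.67 (SE 0.53, 95% interval -0.55 to 1.89, limma adjusted p = 0.946). It was above 0 under every alternative run, between 0.39 without Rac1-/- mouse 3 and 1.5 in the model with the actin difference. Leaving out Rac1-/- mouse 2 gave 1.13, and leaving out WT mouse 3 as well gave 1.33. In both fits Myc was the single member with an unadjusted p under 0.05.

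**Figure D2:**
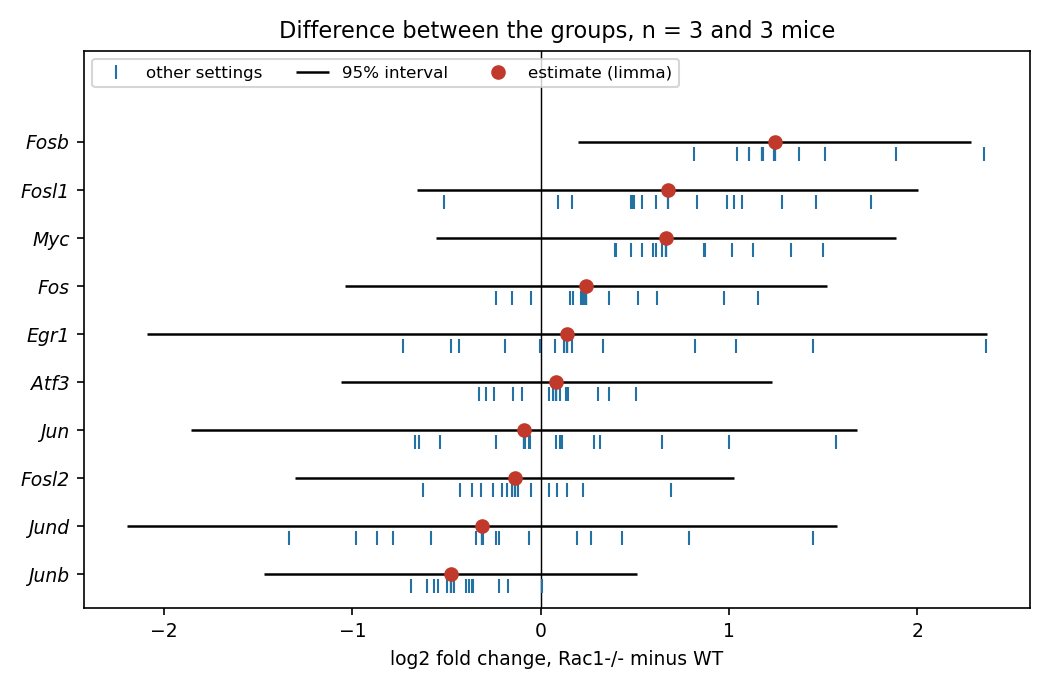
Difference in log2 intensity, Rac1-/- minus WT, for the 10 genes, with the limma estimate (red point), its 95% interval (black line, n = 3 mice per group) and the estimates under the other settings, left-out mice and other probe sets (blue ticks). The interval of Fosb lies above 0, the other 9 include 0, and the ticks fall on both sides of 0 for all genes but Fosb and Myc, with Junb reaching 0.0094.

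Several members shared an order of the mice that cut across genotype. For 5 of the 10 genes (Fos, Fosl2, Jun, Jund and Egr1), both WT mouse 3 and Rac1-/- mouse 2 lay below each of the other 4 mice, where 14.8% of all genes and 22.1% of the 9097 genes above the median mean did so. The same 5 genes did so with arrays scaled to a common median (19.6% of all genes and 34.3% of the brighter ones) and with the intensities as deposited (12.6% and 23.3%). Among these 5 the difference was largest for Egr1, at 5.76 on average in these 2 mice and 8.42 in the other 4, followed by Jund (9.04 and 11.16) and Jun (5.79 and 7.72). It was 6.33 and 7.49 for Fos. These arrays had narrow intensity ranges (1.42 and 1.23), beside 1.48 in Rac1-/- mouse 3, whose rank from the lowest of the 6 mice was 3 for Jun, 4 for Fos and Jund, 5 for Egr1 and 6 for Fosl2. They also had the highest Gapdh measure. On their dimmer probe sets Jun, Jund and Fosl2 did not have this order. The part of array range, RNA quality or the marker sums given below in it was not tested.

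Correlations between these 5 members are given as descriptions only. The 5 were named for being lowest in WT mouse 3 and Rac1-/- mouse 2. High values over 6 mice, and lower ones without those 2 mice, were thus largely fixed beforehand. Jun and Jund had a Pearson r of 0.97 (Spearman correlation 0.89) over the 6 mice, Jund and Egr1 0.95 (0.89), and Fos and Jun 0.92 (0.77), as descriptions over arrays of unequal range. Without WT mouse 3 and Rac1-/- mouse 2, r was 0.63, 0.55 and 0.49 over the 4 mice left, which are too few for a firm value. Fos and Egr1, at 0.87 over 6 mice, had -0.63 over 4, while Fosl2 and Egr1 stayed close, with 0.91 and 0.96. The genes with a profile most like that of Fos among 9096 brighter genes were Polr1d, S100a10, Eif3l, Amy1 and Lgals1, with r from 0.989 to 0.996 over 6 mice. Each of them was also lowest in the same 2 mice. Since Fos was lowest there, choosing genes by likeness to Fos all but fixed this beforehand, and it adds no separate evidence.

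**Figure D3:**
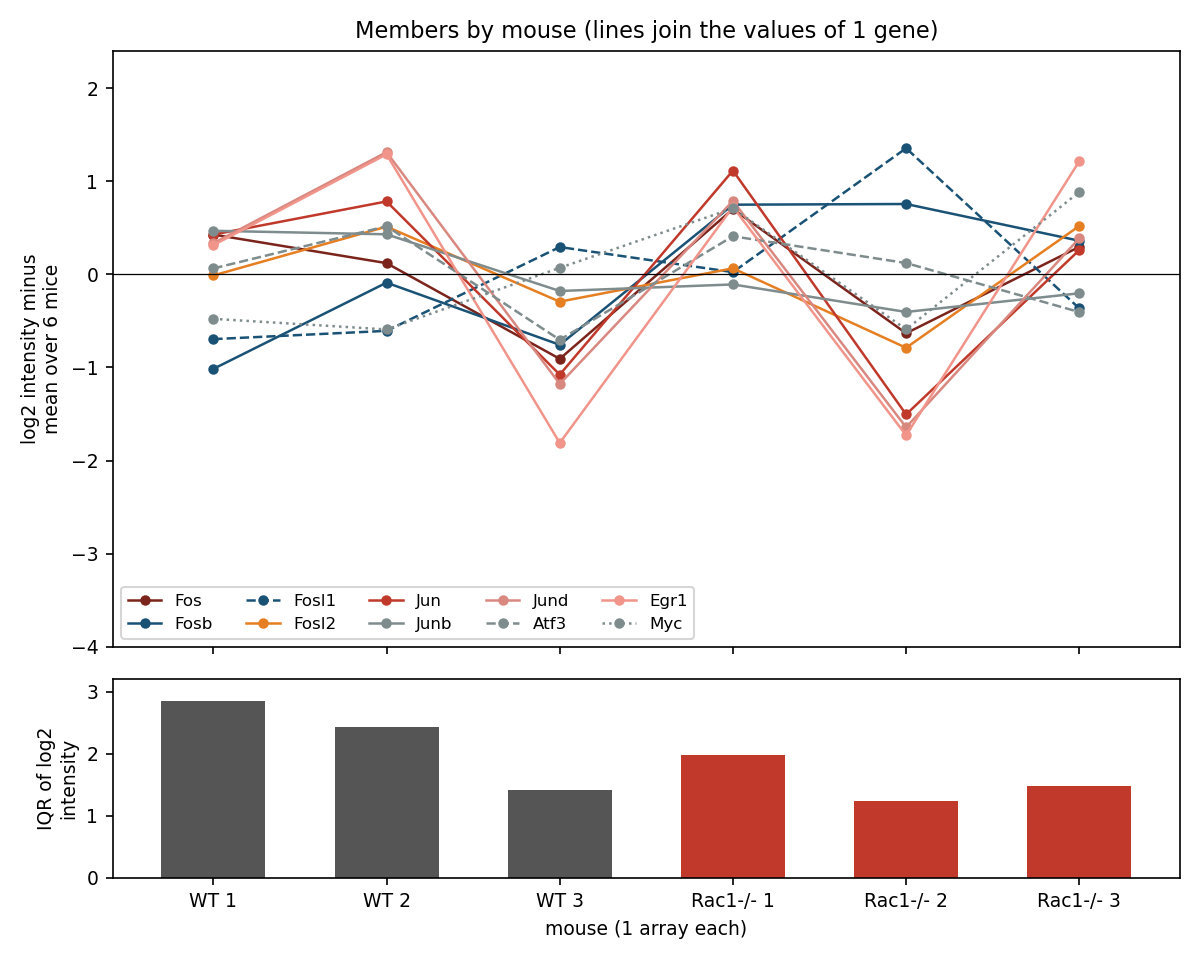
Upper panel, log2 intensity of each gene minus its mean over the 6 mice, with 1 line per gene joining its values. Lower panel, interquartile range (IQR) of the log2 intensities of each array before normalization. Fos, Fosl2, Jun, Jund and Egr1 (reds and orange) dip in WT mouse 3 and Rac1-/- mouse 2, where the range was 1.42 and 1.23, while Fosl1 (dashed blue) is highest in Rac1-/- mouse 2.

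Of 35 other immediate early genes, 23 had a higher and 12 a lower mean in the Rac1-/- group. Their median was 0.074 on the log2 scale beside 0.060 over all genes, and it was -0.079 without Rac1-/- mouse 1 and -0.022 without WT mouse 3. It was 0.36 without Rac1-/- mouse 2, 0.49 as deposited, and 0.43 and 0.65 in the models with the array range and the actin difference. None passed limma's adjusted test, and 1 had an unadjusted p under 0.05. This was Ier2, a nuclear protein gene induced by growth factors, with 6.18, 6.47 and 5.65 in WT mice 1 to 3 and 5.74, 3.68 and 3.03 in Rac1-/- mice 1 to 3. Rac1-/- mice 2 and 3 were low, and the groups overlapped, at a log2 fold change of -1.95 (SE 0.71, 95% interval -3.58 to -0.32, limma adjusted p = 0.946). Ier2 was dim, with a mean above that of 17.2% of all genes, so signal over background limits it as well. Ccn1, which encodes a matricellular protein, was the 1 gene of the 35 without overlap, where 5.41% of all genes are higher and 4.2% lower without overlap, with 5.65, 6.50 and 6.23 in WT mice 1 to 3 and 7.66, 6.89 and 6.76 in Rac1-/- mice 1 to 3 and a log2 fold change of 0.98 (SE 0.48). Gadd45b, a stress gene, had 0.80 (SE 0.54), with overlapping groups. Egr3, a relative of Egr1, had 6.35, 6.65 and 3.66 in WT mice 1 to 3 and 7.13, 2.84 and 6.88 in Rac1-/- mice 1 to 3. Like Egr1 it was far lower in WT mouse 3 and Rac1-/- mouse 2 than in the other 4 mice, with a log2 fold change of 0.063 (SE 1.23), while Egr2, another relative, had 0.071 (SE 0.49). Of 10 other dimer partners of AP-1 proteins, 4 were above and 6 below 0, with a median of -0.23, which was -0.73 with arrays scaled to a common median and 0.20 in the model with the array range. Atf7 had -0.87 (SE 0.59), Batf -0.87 (SE 1.08), and the small Maf genes Mafg and Maff -0.63 and 0.65, with overlapping groups for all 4.

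Upstream, 13 of 16 genes of the MAP kinase pathway had a lower mean in the Rac1-/- group and 3 a higher one, with a median of -0.31 on the log2 scale, and none had an unadjusted p under 0.05. For 3 of the 16, every Rac1-/- value lay below every WT value, where 4.2% of all genes do. They were Pak2, a kinase that binds active Rac, Elk1, which drives transcription of Fos with serum response factor, and Map2k4, a kinase that activates JNK. Pak2 had 7.76, 7.56 and 7.46 in WT mice 1 to 3 and 7.29, 6.68 and 6.78 in Rac1-/- mice 1 to 3, and thus a narrow gap between the groups, with a log2 fold change of -0.68 (SE 0.43). Elk1 had 6.0, 6.08 and 6.34 in WT mice 1 to 3 and 3.24, 5.59 and 5.97 in Rac1-/- mice 1 to 3, where Rac1-/- mouse 1 carried most of the difference of -1.21 (SE 0.72). Map2k4 had 7.53, 7.36 and 8.44 in WT mice 1 to 3 and 7.28, 7.35 and 7.35 in Rac1-/- mice 1 to 3. Its groups were thus barely apart, and WT mouse 3 carried most of the difference of -0.45 (SE 0.47). Map3k1, a kinase above JNK, had -1.23 (SE 0.73) and Map2k2, a kinase above ERK, -1.20 (SE 0.71), with overlap for both. The median of the pathway was below 0 under every alternative run. It was -0.87 with arrays scaled to a common median and -0.56 without WT mouse 2, and nearer 0 without Rac1-/- mouse 2 (-0.20), without both that mouse and WT mouse 3 (-0.16) and in the model with the actin difference (-0.12).

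Downstream, 8 of 13 known AP-1 target genes had a higher mean in Rac1-/- glands and 5 a lower one, with a median of 0.29 and 0 genes at an unadjusted p under 0.05 in limma. Timp1, an inhibitor of matrix metalloproteinases, had 6.71, 6.37 and 6.14 in WT mice 1 to 3 and 7.37, 7.16 and 7.24 in Rac1-/- mice 1 to 3. It was the 1 target without overlap, where 5.41% of all genes are higher without overlap. Its log2 fold change was 0.86 (limma adjusted p = 0.946, SE 0.42). Mmp3, a matrix metalloproteinase active in involution, had 0.95 (SE 0.49), Ccnd1, the gene of cyclin D1, 0.96 (SE 0.51), and Hbegf, an EGF receptor ligand, 1.55 (SE 0.81), each with overlap. The median of the list was 0.070 with arrays scaled to a common median, -0.0026 among genes above the median mean, 0.71 without WT mouse 3 and Rac1-/- mouse 2, and 1.01 in the model with the actin difference.

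Among 12 genes of the Myc network, 6 lay above and 6 below 0, with a median of -0.023, which took either sign across the alternatives. Max, the dimer partner of Myc, had 7.96, 7.56 and 7.70 in WT mice 1 to 3 and 7.44, 7.13 and 7.37 in Rac1-/- mice 1 to 3, so that every Rac1-/- value lay slightly below every WT value, at a log2 fold change of -0.43 (SE 0.42). Mlxip, which encodes a glucose-sensing relative, was the other gene without overlap, at -0.83 (SE 0.48), where 4.2% of all genes are lower without overlap. Mycn and Zbtb17 had 0.62 and 0.60 with overlap. Of 18 Myc target genes, 14 had a higher and 4 a lower mean, with a median of 0.38, and 0 had an unadjusted p under 0.05. Cad, a gene of pyrimidine synthesis, Srm, which makes spermidine, and Nop56, a nucleolar protein gene, had every Rac1-/- value above every WT value, with 1.57 (SE 0.84), 0.97 (SE 0.55) and 0.76 (SE 0.47), where 5.41% of all genes do. Bop1, a ribosome assembly gene, had 0.83 (SE 0.61) with overlap. The direction of this list depended on the scaling, since its median was -0.53 with arrays scaled to a common median and -0.055 as deposited.

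**Figure D4:**
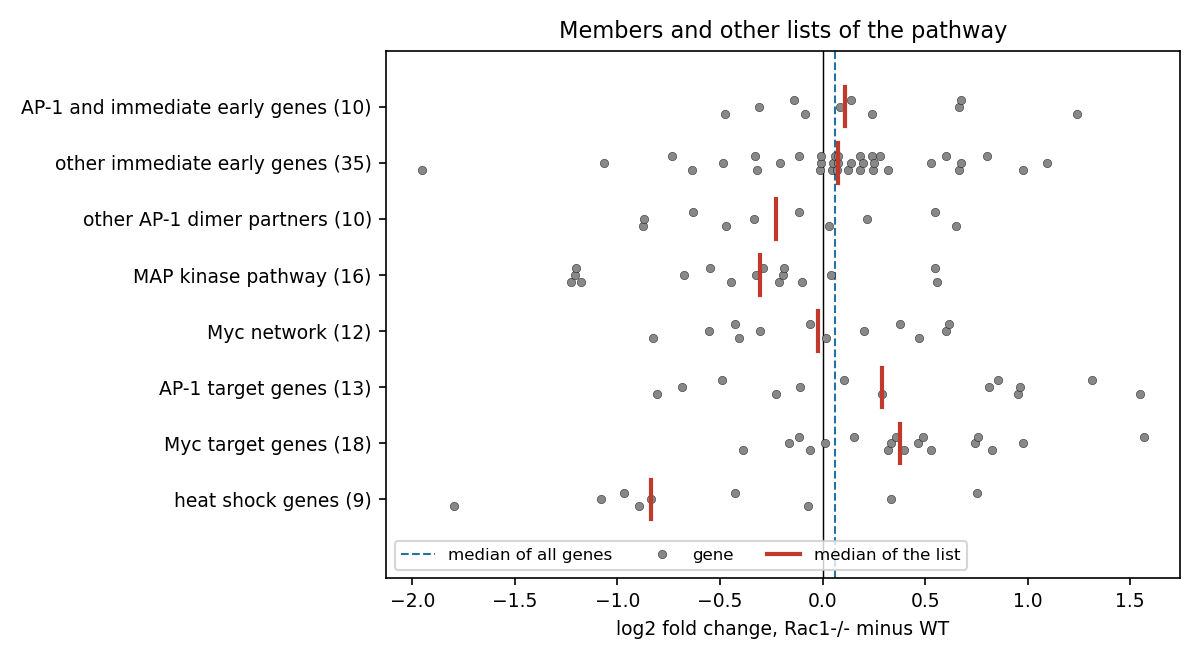
Difference in log2 intensity, Rac1-/- minus WT (n = 3 mice per group), of the 10 members and of 7 other lists, with 1 point per gene, the number of measured genes in brackets, the median of each list in red and the median of all genes as a dashed line. The list medians run from -0.84 for heat shock genes to 0.38 for Myc targets, and every list has genes on both sides of 0.

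Genes that can move with tissue handling or cell makeup were read beside the members. Of 9 heat shock genes, 7 had a lower mean in Rac1-/- glands, with a median of -0.84 and 0 at an unadjusted p under 0.05. Hspa1b, an inducible chaperone gene, had 8.64, 10.22 and 6.82 in WT mice 1 to 3 and 7.91, 4.95 and 7.43 in Rac1-/- mice 1 to 3, and like Egr1 it was lowest in WT mouse 3 and Rac1-/- mouse 2. Hspa5, Hsph1 and Dnajb1, also chaperone genes, had -1.08, -0.89 and -0.84. The list's median was -1.23 with arrays scaled to a common median, -0.41 without WT mouse 2, -0.43 in the model with the array range and -0.027 in the model with the actin difference. Of 10 macrophage markers, 8 had a higher mean, their summed intensity was 1823 to 3821 in WT and 2470 to 7275 in Rac1-/- glands, and it was lowest in WT mouse 3 and Rac1-/- mouse 2 within their groups. Of 7 neutrophil markers, 6 had a higher mean (summed intensity 372.5 to 522.8 and 494.4 to 660.9), and Mpo, the gene of a granule enzyme, had every Rac1-/- value above every WT value at 1.65 (SE 0.54, unadjusted p = 0.0145 and adjusted p = 0.946 in limma). Of all genes, 5.41% are higher without overlap. Mpo was dim, with a mean above that of 12.8% of genes, while S100a8, the brightest neutrophil marker, had -0.096 (SE 0.45). Fibroblast markers summed to 11540 to 16891 and 7455 to 19644, with 5 of 6 above 0, and myoepithelial markers to 1271 to 2053 and 2146 to 3397, with 4 of 6 above 0. Of the others, 2 of 5 T cell, 2 of 3 B cell, 4 of 4 adipocyte, 2 of 5 endothelial and 2 of 6 skeletal muscle markers were above 0. The adipocyte sum was lowest in WT mouse 3 (7843) and Rac1-/- mouse 2 (8266), beside 11418 to 15903 in the other 4 mice, and the endothelial sum was highest in the same 2 mice. No marker was at the floor of 1 on any array. The direction of several marker lists depended on the scaling. With arrays scaled to a common median, the median log2 fold change went from 0.64 to -0.14 for macrophage, from 0.17 to -0.93 for fibroblast, from 0.57 to -0.49 for adipocyte, from 0.18 to -0.48 for myoepithelial and from -0.14 to 0.24 for T cell markers, while for neutrophil markers it went from 0.42 to 1.18, or 1.66 as deposited. The part of these markers in the levels of the AP-1 and immediate early genes was not tested.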

How the data were processed

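RNA of 3 WT and 3 Rac1-/- glands was amplified with the Affymetrix Sensation kit. The paper describes this kit as meant for small amounts of RNA of low quality. The authors deposited 1 linear intensity per probe set of a mouse Affymetrix array. Each array's mean is 100 when 2% of its 45101 values are left out at either end. How probe sets were summarised is not stated. Arrays were compared for identical values (0 pairs), and their number limits the precision.

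In limma 3.58.1 (R 4.3.3) intensities were quantile normalized, raised to a floor of 1 and converted to log2. The annotation names a single gene for 34958 probe sets, several genes for 932 and no gene for 9211. Only the first were used, the brightest one per gene. Groups were compared by lmFit and eBayes with Benjamini-Hochberg adjustment over 18194 genes (threshold 0.05), and second probe sets in a fit over all 34958. The scripts were tested on simulated data. An exact permutation test of 3 against 3 mice cannot give a p below 0.1 and was not used. All members are named, with the 4 genes of smallest p in each pathway list and the 5 most like Fos, except 1 gene that is not reported here. Other genes, such as Map2k4, Egr2 and Egr3, were named after their values were seen. Members, lists and alternatives were chosen with earlier results of these data known, and the count of members lowest in the same 2 mice under other scalings was added after seeing the data. Alternatives change the scaling, floor, probe sets, filter, variance model, arrays or covariates.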

Additional observations from a re-analysis of the deposited data

How the results depend on the processing

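Under all 18 alternatives 0 genes and 0 members passed the adjusted threshold in limma (smallest adjusted p over all genes 0.111), and at an unadjusted p under 0.05 between 362 genes (of the 9097 above the median mean) and 1530 (without WT mouse 3, against 401 without WT mouse 1 and 447 without WT mouse 2) and between 0 and 2 members did. Fosb had such a p in 9 of the 17 alternatives that kept it. Fosb and Myc kept their sign throughout. With arrays scaled to a common median, Fos turned to -0.24, Atf3 to -0.33 and Egr1 to -0.48, and the median of all genes was -0.12 instead of 0.060. Without normalization that median was 0.35, Junb turned to 0.0094 and Egr1 to -0.0034. Jun turned to 0.11 with the mean of its probe sets and 0.32 on its other one, Jund to 0.19 on its other one, and Atf3 to -0.15 with array weights. Without both WT mouse 3 and Rac1-/- mouse 2, Fosl2 was 0.042, Jun 0.082 and Atf3 -0.29. In the model with the interquartile range, Fosl2 was 0.14, Jun 1.0 and Jund 0.79, and with the actin difference, Fosl1 was -0.51, Fosl2 0.69, Jun 1.57 and Jund 1.45, while Egr1, at 2.37, and Myc had an unadjusted p under 0.05. The cause was not tested. Because the actin difference did not overlap between the genotypes, the model with it cannot cleanly separate it from genotype. No paired analysis was possible because the replicate numbers only name the mice. Leaving out single mice gave ranges of -0.15 to 0.62 for Fos, -0.43 to 0.22 for Fosl2, -0.67 to 0.64 for Jun, -0.98 to 0.43 for Jund, -0.25 to 0.36 for Atf3 and -0.73 to 1.04 for Egr1. Among the members, signal over background limits Fosb, Fosl1 and Junb. The filter on dim genes left out these 3, and leaving out probe sets that may cross-hybridize left out Myc.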
